A study of Mus musculus with 6 samples.

Results

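The small leucine-rich proteoglycans are secreted matrix proteins whose curved core is built of leucine-rich repeats, and most carry chains of chondroitin, dermatan or keratan sulfate. They bind collagen fibrils and set how thick and how evenly spaced the fibrils grow, and several also bind growth factors such as TGF-beta. In skin and tendon they are made mainly by fibroblasts. The genes described here were chosen by name, with values of these arrays already known: *Lum*, *Bgn*, *Fmod*, *Ogn*, *Aspn*, *Prelp*, *Kera*, *Omd*, *Epyc* and *Podn*. All 10 were represented, by 20 of the 45101 probe sets of the array, each a group of short probes against the 3′ part of a transcript. The genotype difference took part in choosing these genes, so their genotype values are given as a description. Counts of p-values over them are printed, but nothing is read from them.

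The cells were fibroblasts from the tail tips of neonatal mice, from a strain backcrossed to C57BL6. Cells wild type for *Hotair*, a long noncoding RNA of the Hoxc cluster, were set against cells in which *Hotair* was knocked out, with 3 samples of each genotype and 1 array per sample. How the deletion was made, the passage and the number of animals are not in the labels. Nor do they state that replicates are independent cultures or mice, so the errors cover the spread of these arrays only and may be technical. Values are log2 levels, on which a difference of 1 is a doubling, and since each probe set binds with its own strength, a probe set is only placed roughly as bright or dim among all probe sets, and 1 gene is not ranked above another.

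Both replicate 1 arrays stood apart. On them, 21 of 24 measured proliferation genes were at their lowest, and the median of the list, relative to each gene's own mean, was −1.57 and −1.32 there, for wild type and knockout, against 0.52 to 0.995 elsewhere. The measured fibroblast markers, 9 of 10 listed, had means above the median of all probe sets (5.64), and *Vim*, an intermediate filament protein of mesenchymal cells, lay between 14.40 and 14.80. Means above that median were found for 1 of 8 skeletal muscle markers, 1 of 7 endothelial markers, 3 of 8 keratinocyte markers and 6 of 10 macrophage and leukocyte markers. They were also found for 7 of 8 smooth muscle and myofibroblast, 6 of 7 tendon and 6 of 13 cartilage markers. For bone the count was 1 of 5, for glial and melanocyte 3 of 7 and for adipocyte markers 3 of 6. Each gene was taken by its brightest probe set, and 11326 of all 18193 genes were above that median. Knockout replicate 1 had a larger difference between the 3′ and 5′ control probe sets of *Gapdh* (0.75, against −0.21 to −0.03), which can rise when RNA is degraded.

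Most of these genes lie in 3 groups of neighbours. By the RefSeq gene order, *Dcn*, *Lum*, *Kera* and *Epyc* follow one another, as do *Ecm2*, *Aspn*, *Omd* and *Ogn*, and *Optc*, *Prelp* and *Fmod*. *Bgn* and *Podn* stand apart from other members. The sequences shown are the 250 bases before the start site of *Aspn*, *Omd* and *Ogn*, 3 neighbours on 1 strand whose levels were lowest on the same arrays, and of *Fmod*, for which the genotypes differed most. They come from RefSeq, build GRCm38.p6, and run 5′ to 3′ on the strand of the gene. *Aspn* is at chr13:49544193-49544442 (+), *Omd* at chr13:49582212-49582461 (+), *Ogn* at chr13:49607765-49608014 (+) and *Fmod* at chr1:134037004-134037253 (+). Capitals mark TATAAA, the core of a TATA box, and TTTGAA, the cell cycle homology region found in promoters of mitotic genes, each on either strand.
Aspn: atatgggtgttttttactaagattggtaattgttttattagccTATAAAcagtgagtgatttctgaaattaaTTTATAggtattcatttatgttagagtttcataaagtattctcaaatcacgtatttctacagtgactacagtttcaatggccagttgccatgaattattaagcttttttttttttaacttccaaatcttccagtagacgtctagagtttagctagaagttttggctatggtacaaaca
Omd: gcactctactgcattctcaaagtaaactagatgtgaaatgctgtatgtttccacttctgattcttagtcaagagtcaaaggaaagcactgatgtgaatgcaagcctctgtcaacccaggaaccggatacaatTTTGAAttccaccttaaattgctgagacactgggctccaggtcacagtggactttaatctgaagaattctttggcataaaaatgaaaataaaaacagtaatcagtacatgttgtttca
Ogn: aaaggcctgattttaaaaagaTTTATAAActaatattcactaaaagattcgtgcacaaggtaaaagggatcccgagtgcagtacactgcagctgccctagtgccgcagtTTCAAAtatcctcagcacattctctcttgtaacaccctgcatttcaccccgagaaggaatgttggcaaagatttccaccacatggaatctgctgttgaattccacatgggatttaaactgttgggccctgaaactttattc
Fmod: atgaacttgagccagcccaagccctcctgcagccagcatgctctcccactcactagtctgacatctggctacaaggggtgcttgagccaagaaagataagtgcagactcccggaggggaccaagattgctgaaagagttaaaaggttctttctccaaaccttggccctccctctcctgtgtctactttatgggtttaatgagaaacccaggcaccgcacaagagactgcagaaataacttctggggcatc

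The capitals differ between the 3 neighbours. TTTGAA or its reverse occurred once before *Omd*, starting 118 bases before the start site, and once before *Ogn*, at 141 bases, but not in these windows of *Aspn* and *Fmod*. It also occurred 2 times before *Bgn*, at 235 and 145 bases, and once in 1 of the 2 windows of *Epyc*, at 248 bases, genes that were not lowest on the replicate 1 arrays. TATAAA occurred before *Aspn* at 207 and 178 bases and before *Ogn* at 229 and 227 bases, where the 2 matches overlap on opposite strands. Of 32851 RefSeq windows of 250 bases, 16% held TTTGAA and 12.4% held TATAAA. The other motifs searched, on both strands, were the E-box CANNTG (66.2% of windows), the SMAD-binding letters CAGAC (42.2%), the AP-1 letters TGANTCA (6.75%) and the homeodomain core TAATTA (4.84%). Overlapping matches were each counted. *Fmod* held CAGAC at 195 and 148 bases and an E-box at 189 bases, *Aspn* and *Ogn* held E-boxes (1 and 3), and none of these 4 windows held TGANTCA or TAATTA. A match is a match of letters, not a measured site. Windows were found for 9 of the 10 genes, and *Lum* had no entry.

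Fibromodulin and lumican differed most between genotypes. *Fmod*, which binds collagen and guides fibril growth in tendon, measured 7.89, 4.96 and 6.97 on wild-type arrays 1, 2 and 3 and 10.57, 9.91 and 9.52 on knockout arrays 1, 2 and 3, by its brightest probe set. Each knockout array was above each wild-type array. The means were 6.61 ± 1.499 and 10.003 ± 0.53 (SD, n = 3), a difference of 3.40 ± 0.77 (SE), or 10.5-fold. Within replicate numbers 1, 2 and 3 the knockout was higher by 2.69, 4.95 and 2.55. The largest of these differences rests on wild-type replicate 2, the lowest array for this gene, and without that array the difference was 2.57.

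The other probe sets of *Fmod* showed the same separation. There were 6 in all, and 5 of them carry the suffix x, which the maker gives to probe sets that may also bind other transcripts. The probe set without this suffix measured 7.07, 5.43 and 6.04 on the wild-type arrays and 9.11, 9.32 and 8.56 on the knockout arrays. Its difference was 2.82 ± 0.45 (SE), or 7.05-fold. Over the 6 probe sets the difference ran from 2.04 to 3.40, and in each of them the knockout arrays lay above the wild-type arrays. Some probe sets of 1 gene may read the same transcript end, so they are not independent measurements.

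**Figure D1:**
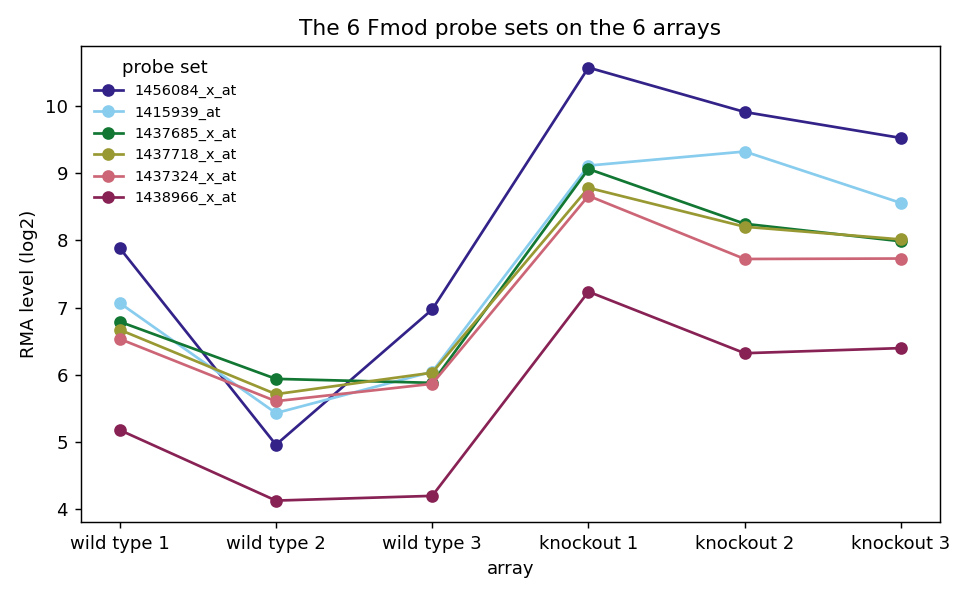
Log2 level (vertical axis) of each of the 6 Fmod probe sets on the 6 arrays (horizontal axis), with lines joining the values of 1 probe set. In each line the 3 knockout values lie above the 3 wild-type values, and the differences of means run from 2.04 to 3.40.

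*Lum*, a keratan sulfate proteoglycan that limits the width of fibrils in cornea and skin, has 1 probe set. It measured 8.79, 5.03 and 6.06 on wild-type arrays 1, 2 and 3 and 10.46, 8.77 and 8.56 on knockout arrays 1, 2 and 3. The genotypes overlapped, because wild-type replicate 1 was above knockout replicates 2 and 3. The means were 6.63 ± 1.94 and 9.26 ± 1.04 (SD, n = 3), a difference of 2.64 ± 1.06 (SE), or 6.22-fold. Within replicate numbers the knockout was higher by 1.67, 3.75 and 2.49. Replicate 1 was the higher array in both genotypes, and without wild-type replicate 2 the difference was 1.84. After *Lum* and *Fmod* were centred on their own means, the root mean square distance between their profiles over the 6 arrays was 0.72.

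*Dcn*, the neighbour of *Lum* and the founding dermatan sulfate proteoglycan of the family, is not a member here but had a wide range as well. It measured 10.94, 6.87 and 9.9998 on the wild-type arrays and 11.54, 12.98 and 12.58 on the knockout arrays. Its wild-type replicate 2 was low, as for *Lum* and *Fmod*. The highest value of *Dcn* was in knockout replicate 2, while *Lum* and the brightest probe set of *Fmod* were highest in knockout replicate 1. The *Fmod* probe set without the suffix x was highest in knockout replicate 2 (9.32, against 9.11 in knockout replicate 1), as *Dcn* was. The *Dcn* difference of 3.10 ± 1.09 (SE) did not pass over all probe sets (limma adjusted p = 0.924).

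*Kera* and *Epyc*, which follow *Lum* on the chromosome, were dim. *Kera*, the keratan sulfate proteoglycan of the cornea, measured 3.90, 3.85 and 3.83 on the wild-type arrays and 4.11, 4.38 and 4.64 on the knockout arrays. The knockout arrays lay above the wild-type arrays, by 0.52 ± 0.17 (SE), but the mean of the probe set was above only 22.2% of all probe sets. *Epyc*, a dermatan sulfate proteoglycan of growing cartilage, lay between 3.11 and 3.50 on 5 arrays and at 4.29 in knockout replicate 1, and was above 6.46% of probe sets. At such levels RMA compresses differences, and presence of these RNAs was not shown.

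*Prelp*, the neighbour of *Fmod*, did not share its pattern by its brighter probe set. This protein has a basic end that binds heparan sulfate and links basement membranes to collagen. Its brighter probe set measured 7.29, 6.93 and 6.62 on the wild-type arrays and 8.997, 6.07 and 5.96 on the knockout arrays. On this brighter probe set knockout replicate 1 was the highest array, and the other knockout arrays were the lowest. The means were 6.95 ± 0.33 and 7.01 ± 1.72 (SD, n = 3), a difference of 0.06 ± 0.85 (SE). Without knockout replicate 1 it was −0.93. The other probe set of *Prelp* lay at 6.35 on that array against 4.97 to 5.51 on the others. It differed by 0.43 ± 0.34 (SE), and by 0.84, 0.13 and 0.31 within replicate numbers. This was the direction of *Fmod*, but the genotypes overlapped. On this probe set, knockout replicates 2 and 3 (5.30 and 5.28) lay above wild-type replicates 2 and 3 (5.17 and 4.97). Knockout replicate 1 also had the highest summed level of the 10 measured macrophage and leukocyte markers of 11 listed (11.56, against 8.83 to 9.97 on the other arrays; wild type 9.62 to 9.97, knockout 8.83 to 11.56). That array was the highest of the 6 for 6 of these 10 markers, beside 3216 of all 18193 genes. There *Tyrobp*, a signalling adaptor of myeloid cells, measured 9.14 against 4.88 to 5.45, and *Cd68* 7.85 against 4.99 to 6.47. The endotoxin co-receptor *Cd14*, however, measured 7.89 there, below the wild-type arrays (8.17 to 8.89), and *Csf1r*, the receptor for a macrophage growth factor, 7.30, below wild-type replicate 1 (7.496). *Ptprc*, the pan-leukocyte surface marker, was dim on the 6 arrays (3.84 to 4.44). The part of these markers, and of the 3′ to 5′ difference on that array, in the value of *Prelp* was not tested. In bulk RNA, fewer cells of a type and less RNA per cell cannot be told apart.

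**Figure D2:**
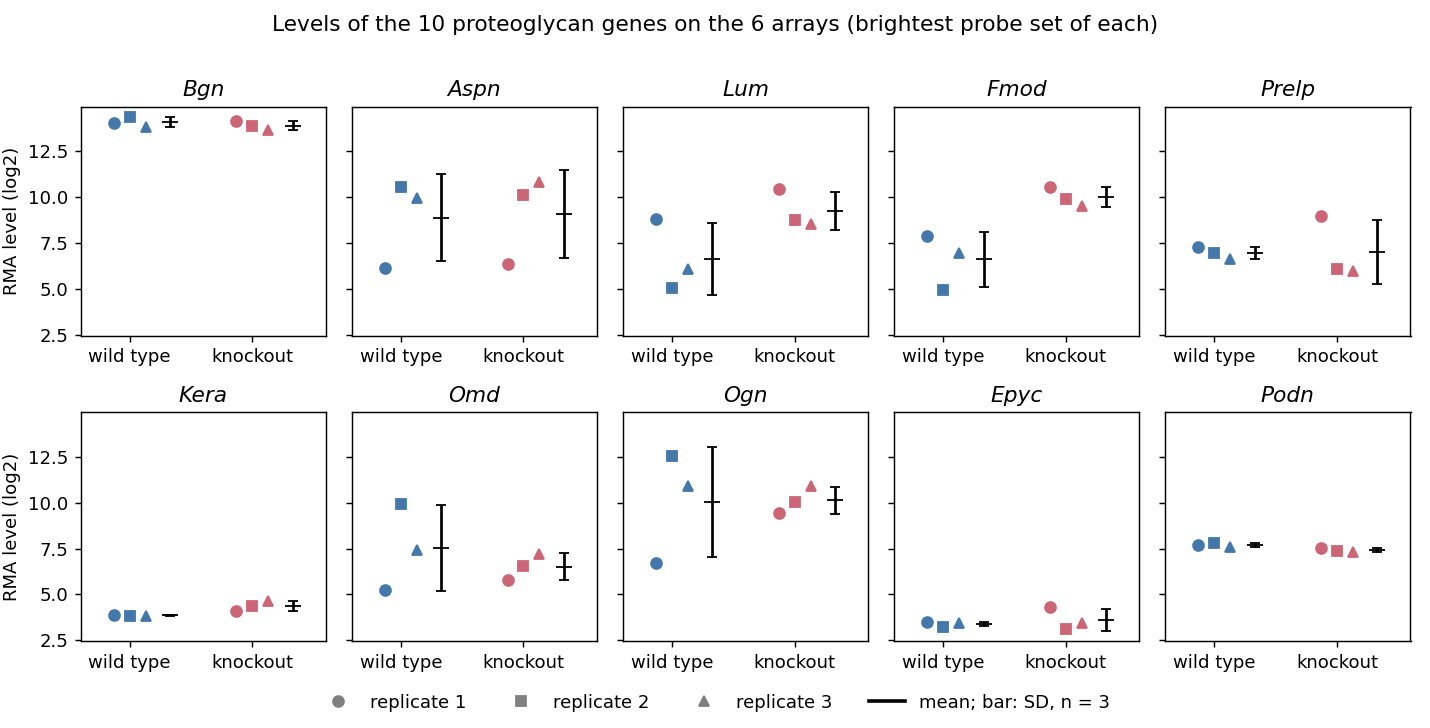
Log2 level (vertical axis) of the brightest probe set of each gene in wild type and knockout, with the replicate number as the symbol and the mean with its SD (n = 3) beside the points. Fmod is higher on the 3 knockout arrays than on the 3 wild-type arrays, Aspn is near 6 on both replicate 1 arrays and near 10 or above on the others, and Bgn and Podn hardly vary.

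The class I proteoglycan biglycan and the class V member podocan varied little. *Bgn*, which carries chondroitin or dermatan sulfate chains and also acts as a danger signal, measured 14.07, 14.37 and 13.84 on the wild-type arrays and 14.15, 13.91 and 13.68 on the knockout arrays. The genotypes overlapped, with a difference of −0.18 ± 0.20 (SE), and the other probe sets differed by −0.28 and −0.24. The probe set is above 99.6% of all probe sets, near the top of the scale, where arrays can saturate. *Podn*, a collagen-binding protein, measured 7.73, 7.83 and 7.60 on the wild-type arrays and 7.54, 7.38 and 7.32 on the knockout arrays. The knockout arrays lay below the wild-type arrays, by only 0.30 ± 0.13 (SE) in size, or 1.23-fold. The range over the 6 arrays was 0.69 for *Bgn* and 0.51 for *Podn*, against 5.62 for *Fmod* and 5.43 for *Lum*.

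The neighbours *Aspn*, *Omd* and *Ogn* were lowest on both replicate 1 arrays. *Aspn*, or asporin, binds collagen and TGF-beta and carries a run of aspartates at its end. It measured 6.16, 10.56 and 9.94 on wild-type arrays 1, 2 and 3 and 6.35, 10.11 and 10.82 on knockout arrays 1, 2 and 3. Replicate 1 was low in both genotypes, and the genotype means differed by only 0.21 ± 1.62 (SE). Its other probe set gave 5.34, 9.79 and 8.78 on the wild-type arrays and 6.04, 8.90 and 9.66 on the knockout arrays, the same order within each genotype.

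*Ogn*, osteoglycin or mimecan, a keratan sulfate proteoglycan of bone, skin and vessel wall, measured 6.71, 12.53 and 10.89 on the wild-type arrays and 9.47, 10.03 and 10.93 on the knockout arrays. The wild-type arrays spanned 5.82, more than the knockout arrays. Wild-type replicate 2 was the highest and wild-type replicate 1 the lowest of the 6 arrays. Within replicate numbers the knockout differed by 2.76, −2.50 and 0.04, so the mean difference of 0.10 ± 1.48 (SE) stands for values of opposite sign. The second probe set differed by −0.58 ± 1.53 (SE), and by 1.37, −2.76 and −0.33 within replicate numbers.

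*Omd*, osteomodulin, a keratan sulfate proteoglycan of mineralised matrix, measured 5.22, 9.93 and 7.42 on the wild-type arrays and 5.79, 6.53 and 7.23 on the knockout arrays. Its mean difference of −1.01 ± 1.18 (SE) rested on replicate 2, where the knockout was lower by 3.39 in size, with 0.57 and −0.19 in replicates 1 and 3. Without wild-type replicate 2 the difference turned to 0.20. Among the members with a range above 2, *Omd* and *Ogn* had a profile distance of 0.80, and *Aspn* and *Ogn* one of 1.12. *Ecm2*, the neighbour of *Aspn* and a related matrix protein, was dim on the 6 arrays (3.22 to 3.75), and its difference was 0.21 ± 0.17 (SE).

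**Figure D3:**
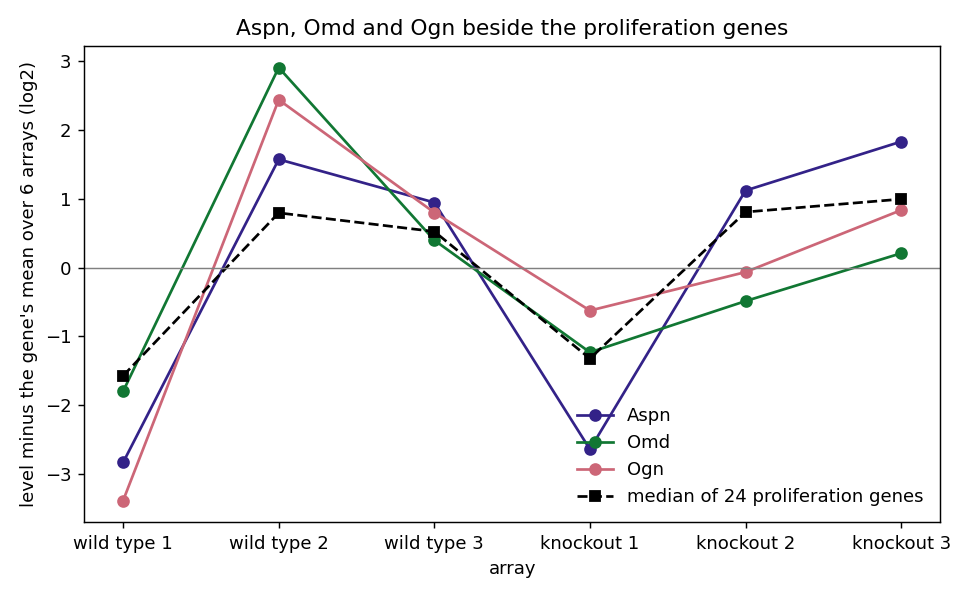
Log2 level minus each gene's own mean over the 6 arrays (vertical axis) for Aspn, Omd and Ogn, with the median of the 24 measured proliferation genes as a dashed line, on the 6 arrays (horizontal axis). Both replicate 1 arrays lie below 0 for the 3 genes and the proliferation median.

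The replicate number is balanced over genotype and is not the contrast by which the genes were chosen. It was tested by limma's F-test in a fit with genotype and replicate number over the 45037 probe sets that are not controls. That the replicate 1 arrays stand apart was already known when the genes were chosen, so these tests are not independent evidence. The number may stand for a culture, a litter or a day, which the labels do not say. With adjustment 0 member probe sets passed, beside 0 of all probe sets (0%). At an unadjusted p under 0.05 there were 9 of 20 member probe sets, beside 17.1% of all. Of these 9, *Fmod* had 4 and *Aspn* 2, and probe sets of 1 gene are not independent. Taken as 1 probe set per gene, the count was 2 of 10 genes, *Aspn* and *Lum*, beside 18.7% of all genes. *Aspn* was higher in replicate 2 than in replicate 1 by 4.08 ± 0.36 and in replicate 3 by 4.12 ± 0.36 (SE), and its adjusted p by limma was 0.0619. Over 10 alternatives this adjusted p ran from 0.0244 to 0.329 and was under 0.05 in 4. These were a prior with a trend and robust fitting (0.0244), 1 probe set per gene (0.0381), dim probe sets left out (0.0431) and knockout replicate 1 left out (0.0408).

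*Lum* went the other way, lower in replicate 2 than in replicate 1 by 2.72 in size and in replicate 3 by 2.31 in size (SE 0.52). Its limma adjusted p was 0.157, and 0.112 to 0.142 over the alternatives that keep the 6 arrays. For *Ogn* the differences from replicate 1 were 3.19 and 2.82 ± 1.27 (SE; limma adjusted p = 0.420), and for *Omd* 2.72 and 1.82 ± 1.02 (SE; limma adjusted p = 0.425). For *Prelp* they were −1.64 and −1.85 ± 0.70 (SE; limma adjusted p = 0.394, and 0.281 to 0.372 over the alternatives that keep the 6 arrays). Leaving out an array leaves its replicate number with only 1 array, so p-values of those fits are not given for these genes. Both replicate 1 arrays were the lowest of the 6 for 3 of 10 genes, *Aspn*, *Omd* and *Ogn*, beside 12.5% of all genes. They were the highest for 3, *Lum*, *Prelp* and *Epyc*, beside 24.6% of all genes. The margin was small for *Lum* (wild-type replicate 1 at 8.79, knockout replicate 2 at 8.77). It was also small for the dim *Epyc* (wild-type replicate 1 at 3.50, knockout replicate 3 at 3.45).

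The proliferation genes moved with the same arrays. Their summed level was 14.32 and 14.60 on the replicate 1 arrays of wild type and knockout and 15.91 to 16.30 on the others, and its range was 14.32 to 16.07 in wild type and 14.60 to 16.30 in knockout. The part of proliferation in the values of *Aspn*, *Omd* and *Ogn* was not tested. Among 10921 named genes outside the members with a mean above the median of all probe sets, those with the profile nearest to *Aspn* over the 6 arrays were *Esco2*, *Depdc1a* and *Nuf2*, genes of sister chromatid cohesion and mitosis. Their root mean square distances were 0.27, 0.29 and 0.36, against a median of 2.03 over these genes. *Esco2* measured 3.48, 7.29 and 7.31 on the wild-type arrays and 3.65, 6.96 and 7.65 on the knockout arrays.

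The other members with a range above 2 had different neighbours in profile. Nearest to *Lum* were *Aebp1*, a collagen-binding matrix protein, at 0.27, *Igdcc4* at 0.36 and the chemokine *Ccl2* at 0.48. *Aebp1* measured 11.39, 7.22 and 7.94 on the wild-type arrays and 12.25, 10.81 and 10.81 on the knockout arrays, high where *Lum* was high. Nearest to *Fmod* were *Tnmd*, a membrane protein of tendon cells, at 0.55, *Rgcc* at 0.68 and the protease *Mmp9* at 0.68. *Tnmd* measured 8.69, 4.88 and 7.25 on the wild-type arrays and 10.07, 10.43 and 10.69 on the knockout arrays. Nearest to *Omd* were *Igf1* (0.49), *Rspo2* (0.57) and *Ckap2* (0.70), and nearest to *Ogn* were *Rspo2* (0.53), *Hmgn5* (0.66) and *Hmmr* (0.66). Nearest to *Prelp* were *Parp3* (0.25), *Angptl7* (0.27) and the macrophage marker *Cd68* (0.31).

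Across the 10 genes the genotype differences did not share a direction. By the brightest probe set, 7 were positive and 3 negative, the median being 0.15, beside a median of 0.01 over 18193 genes. *Fmod* and *Lum* were above 1 (all genes, 3.05%), and *Omd* was below −1 (all genes, 2.45%). The knockout arrays lay above the wild-type arrays for 2 genes, *Fmod* and *Kera* (all genes, 5.56%), and below for 1, *Podn* (all genes, 4.38%). Within the replicate numbers, 3 genes were higher in each pair, *Lum*, *Fmod* and *Kera* (all genes, 17.1%), and *Podn* was lower in each (all genes, 13.4%). By limma 0 of 20 member probe sets had an adjusted p under 0.05, as for all probe sets (0%, smallest adjusted p 0.924). At an unadjusted p under 0.05 there were 8 of 20, beside 5.34% of all probe sets, and with the replicate number as a block also 8, beside 8.88%. *Fmod* alone has 6 of these 20 probe sets. Taken as 1 probe set per gene, the unadjusted count without the block was 3 of 10 genes, beside 6.98% of all genes. These counts use the contrast that chose the genes, and nothing is read from them.

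**Figure D4:**
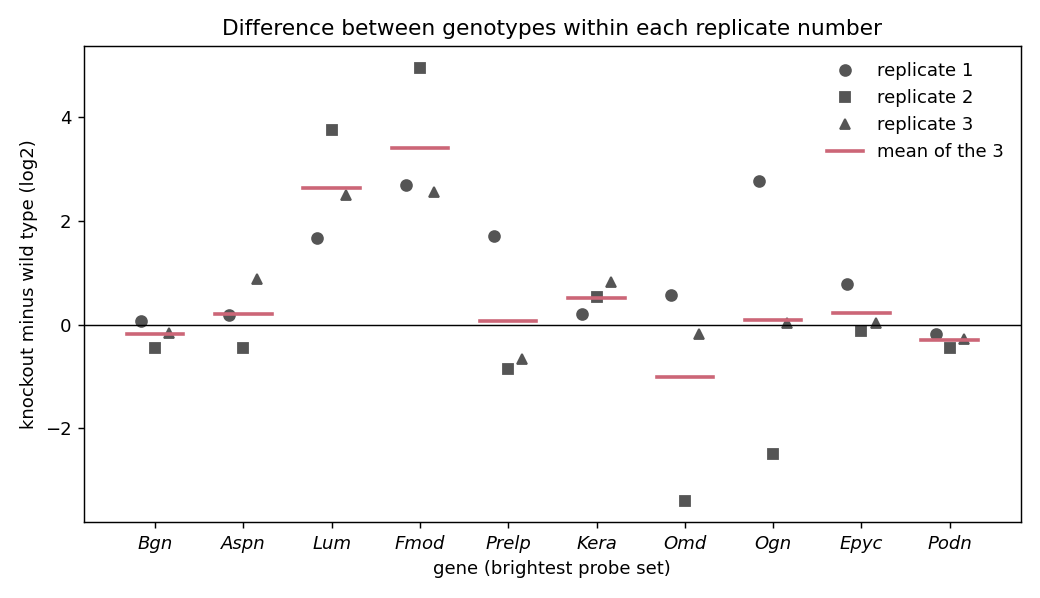
Knockout minus wild type (vertical axis, log2) for the brightest probe set of each gene, within replicate numbers 1, 2 and 3 (symbols) and as their mean (line). The 3 values of Fmod and Lum lie above 0, while those of Ogn run from −2.50 to 2.76.

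Without both replicate 1 arrays, an alternative known from earlier results of these data, 2 arrays are set against 2, and the values are again a description. The difference of *Lum* was then 3.12, and those of the *Fmod* probe sets ran from 1.99 to 3.75. By the brightest probe sets, *Omd* was at −1.79, *Ogn* at −1.23, *Aspn* at 0.22 and *Prelp* at −0.76. The other probe sets of *Ogn*, *Aspn* and *Prelp* were at −1.55, −0.006 and 0.22, so the signs for *Aspn* and *Prelp* depended on the probe set. The errors given for genotype differences come from the fit without the replicate number. With the replicate number as a block the SE was 0.54 for *Fmod*, 0.43 for *Lum*, 0.29 for *Aspn*, 1.03 for *Ogn*, 0.83 for *Omd* and 0.57 for *Prelp*, around the same differences.

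No gene of the related lists passed the test between genotypes by limma, beside 0 of 18193 genes (0%). At an unadjusted p under 0.05 there were 6.98% of all genes. Of the 6 measured members of the list of other leucine-rich matrix proteins, 1 was under 0.05 unadjusted, *Dcn*. *Optc*, or opticin, which lies beside *Prelp*, differed by −0.45 ± 0.20 (SE), and *Chadl* by −0.32 ± 0.38. *Chad*, chondroadherin of cartilage, differed by −0.06 ± 0.17 and *Nyx*, nyctalopin of the retina, by −0.06 ± 0.24, both dim.

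The enzymes that build the sugar chains were mixed. Of 21 measured enzymes of chondroitin and dermatan sulfate, 8 were positive and 13 negative (median −0.11), and 1 was under 0.05 unadjusted. *Chst15*, which adds a further sulfate to chondroitin, differed by 1.96 ± 0.62 (SE), and *Chst7*, a chondroitin 6-sulfotransferase, by −1.89 ± 1.13. *Chst7* measured 9.33 in knockout replicate 1 and 5.03 and 5.62 in replicates 2 and 3, against 8.16 to 8.83 in wild type. Of 14 enzymes of keratan sulfate, 6 were positive and 8 negative (median −0.05), and 3 were under 0.05 unadjusted. *St3gal1*, a sialyltransferase, differed by 1.30 ± 0.42 and *B3gnt2*, which extends lactosamine chains, by −0.94 ± 0.32.

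The collagens that these proteins bind differed by less than 1. Of 14 chains, 12 were positive (median 0.24), and 1 was under 0.05 unadjusted. *Col6a3*, of the beaded filaments, was at 0.72 ± 0.30 (SE) and *Col5a2*, of the fibril core, at −0.21 ± 0.21. Of 14 genes of collagen processing, 7 lay on each side of 0 (median 0.03) and 3 were under 0.05 unadjusted. *Plod2*, a lysyl hydroxylase of crosslinks, was at −2.09 ± 0.84 and *Adamts3*, a procollagen protease, at 1.17 ± 0.42.

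Of 14 proteases that can cut these proteoglycans, 9 were positive and 5 negative (median 0.16), and 3 were under 0.05 unadjusted. *Mmp9*, a gelatinase, measured 6.80, 5.37 and 6.13 on the wild-type arrays and 9.20, 8.20 and 8.17 on the knockout arrays, a difference of 2.42 ± 0.45 (SE). The knockout arrays lay above the wild-type arrays, as for *Fmod*. *Mmp13*, a collagenase, differed by −1.44 ± 1.80. Of 21 growth factors and receptors bound by the family, 7 were positive and 14 negative (median −0.14), and 4 were under 0.05 unadjusted. *Tgfbr3*, betaglycan, which presents TGF-beta to its receptors, measured 9.66, 9.04 and 10.58 on the wild-type arrays and 11.39, 12.07 and 11.74 on the knockout arrays, a difference of 1.97 ± 0.42. *Bmp2*, a bone morphogenetic protein, differed by −2.32 ± 1.05.

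Markers of cells that make much of these proteins were set beside them. Of 7 tendon markers, 4 were positive and 3 negative (median 0.14). *Tnmd* was at 3.45 ± 0.94 (SE), and *Egr1*, an early response transcription factor, at −1.27 ± 0.66. The summed tendon level was 12.49 to 13.06 in wild type and 11.61 to 13.36 in knockout. Of 13 cartilage markers, 5 were positive (median −0.04), with *Matn3*, a matrilin, at 0.18 ± 0.13 and *Hapln1*, a link protein, at −2.60 ± 1.48. Of 9 fibroblast markers, 6 were positive (median 0.96). *Postn*, the matrix protein periostin, was at 2.96 ± 1.33 and *Fbln2*, a fibulin of elastic fibres, at −0.31 ± 0.48. Both replicate 1 arrays were the lowest for 2 of the 9, *Pdgfra* and *Ddr2*, and the highest for 2, *Thy1* and *Fbln2*. The part of these markers in the values of *Fmod* and *Lum* was not tested. Median differences of the remaining lists were −0.07 for bone, −0.20 for smooth muscle and myofibroblast, −0.06 for skeletal muscle, 0.001 for keratinocyte, −0.08 for endothelial, 0.22 for macrophage and leukocyte, −0.05 for glial and melanocyte, 0.24 for adipocyte markers and 0.48 for proliferation genes. None of their genes passed by limma, and 6 were under 0.05 unadjusted. The largest positive differences in these lists, in the same order, were those of *Sp7* (0.42), *Cnn1* (1.55), *Myh3* (0.23), *Krt5* (0.14), *Tek* (0.13), *Tyrobp* (1.44), *Mitf* (1.52), *Lpl* (4.22) and *Mcm6* (0.80). The largest negative ones were those of *Phex* (−0.25), *Smtn* (−0.99), *Acta1* (−2.27), *Dsp* (−2.20), *Eng* (−0.88), *Cd14* (−1.97), *Pmel* (−0.13), *Fabp4* (−0.32) and *Rrm2* (−0.64).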

How the data were processed

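The deposited table of 6 arrays gives log2 probe set levels, which the authors made with RMA under R 2.11.1 (per the submitters' processing notes). That method removes background, forces 1 intensity distribution on the arrays and combines the probes of each set. A shift in total RNA is therefore invisible, and dim differences come out too small. The annotation used upstream is not given in the sources used here. The number of arrays limits the precision.

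A platform table named the probe sets: 34945 had 1 gene, 932 several and 9160 none, and 64 controls were left out. No probe set with several genes named a member. Each gene took the brightest, by mean, of the probe sets that named it alone. The genotype fit (limma 3.58.1, R 4.3.3, lmFit with eBayes) ran over 45037 probe sets with Benjamini-Hochberg adjustment at 0.05. Replicate numbers were tested by the moderated F-test with genotype in the fit. The scripts were tested on simulated data. The summed level of a list is the log2 of the sum of its unlogged levels. *Hotair* itself was not analysed here, so the labels were not checked against it.

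Both genotypes carry replicate numbers 1 to 3. After subtracting genotype means, arrays with number 1 correlated at 0.50, those with number 2 at 0.49 and those with number 3 at 0.25. From these correlations equal numbers were read as pairs, although wild-type array 3 was closest to knockout array 2 (0.33). Printed errors of genotype differences come from the unpaired fit unless the block is named.

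The members and lists were chosen with earlier results of these data known. Named genes were the 10 members, the other leucine-rich matrix proteins, the largest difference of each sign in each other related list, and, for members with a range above 2, the 3 nearest profiles. *Vim*, *Cd68*, *Ptprc*, *Csf1r*, *Pdgfra*, *Ddr2* and *Thy1* were named after their values were seen. Alternatives were the replicate block, another prior, a filter on dim probe sets, 1 probe set per gene, array weights, centred arrays and arrays left out.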

Additional observations from a re-analysis of the deposited data

How the results depend on the processing

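By limma, 0 probe sets were called between genotypes with the replicate block, a trended and robust prior, dim probe sets left out, 1 probe set per gene, array weights or arrays centred on their medians. The smallest adjusted p was 0.924 without and 0.487 with the replicate block, so the pairing changed no call. Leaving out 1 array gave 0 to 48 calls (48 without knockout replicate 1), and leaving out both replicate 1 arrays gave 1836. The replicate number was called for 0 probe sets, but for 497 with the trended and robust prior, 171 with dim probe sets left out, 249 with 1 probe set per gene, 72 with centred arrays and 0 to 1775 without 1 array (406 without wild-type replicate 1, 1775 without knockout replicate 1). The cause was not tested.

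The median difference of the 10 genes was 0.15, and ran from −0.18 without both replicate 1 arrays, or −0.13 with array weights, to 0.37 without wild-type replicate 3. Of 100 single-gene values over the alternatives, 86 kept their sign. This count includes the replicate block, which returns the main difference of each gene, and centring, which shifts all differences alike. Neither turned a sign, so the count overstates how stable the signs were. *Fmod* lay between 2.57 and 4.04 and *Lum* between 1.84 and 3.72. Signs turned for *Aspn* (−1.16 to 1.58), *Ogn* (−1.57 to 1.34), *Omd* (−2.15 to 0.20), *Prelp* (−0.93 to 0.59) and *Epyc* (−0.11 to 0.48).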
